A study of Mus musculus with 3 samples.

Results

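The genes described here encode the matrix metalloproteinases (MMPs), the ADAMTS proteases, the ADAMTS-like proteins (ADAMTSL) and the tissue inhibitors of metalloproteinases (TIMPs). They were taken by their gene symbols, with no threshold on a measured value, and comprised 51 of 46983 genes in the count table, with 23 MMP, 19 ADAMTS, 5 ADAMTSL and 4 TIMP genes. RNA came from mouse leptomeninges, the thin inner coverings of the brain, which were dissected from vehicle-treated mice, dissociated and sorted by flow cytometry into a pia-enriched fraction. The study held 3 libraries of this 1 group, numbered 1 to 3, so that the data allow comparisons between libraries and between genes but not between treatments. The labels do not give the vehicle's purpose, nor genotype, strain, sex or age, nor whether each library is a separate animal. P-values therefore refer only to these samples, and the spread between them may be technical.

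MMPs and ADAMTS proteases are secreted or membrane-bound zinc enzymes that cut proteins of the extracellular matrix. MMPs cut collagens, gelatin and many other substrates and are made as inactive precursors. ADAMTS proteases have narrower roles, such as the cleavage of the proteoglycans aggrecan and versican or the trimming of procollagens. ADAMTSL proteins resemble the non-catalytic part of ADAMTS proteases, and TIMPs block the active site of the enzymes. In connective tissue, fibroblasts make both the matrix and many of these enzymes and inhibitors.

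The enzymes share a zinc-binding site whose histidine codons can be read in the coding sequence, and this site is shown here because it holds the catalytic zinc and its codons differ between groups of the enzymes. The in-frame search of the longest coding sequence of each gene in GENCODE M21 (GRCm38) covered the coding strand. The site with a glycine codon at its variable place was found in 22 of 23 MMP genes and 13 of 19 ADAMTS genes, and in 0.305% of 22301 genes with a coding sequence. An asparagine codon stood at that place in Adamts1, Adamts4, Adamts9, Adamts15 and Adamts20, and these were the only 5 of the 22301 genes with that form. All 5 are proteoglycan-cleaving ADAMTS genes, whereas Adamts5, of the same role, carried the glycine form. Neither form was found in Mmp1a, Adamts8, the 5 ADAMTSL genes or the 4 TIMP genes. Only these forms were searched, so a site with other codons would be missed and Mmp1a and Adamts8 need not lack it. The cysteine switch, the stretch of the propeptide that keeps an MMP inactive, was matched in 17 genes, all of them MMPs. Among the MMPs it was not matched in Mmp11, Mmp17, Mmp19, Mmp23, Mmp25 and Mmp28. The search took an exact codon pattern (Pro-Arg-Cys-Gly-any-Pro-Asp), so variants would be missed and the unmatched genes need not lack a switch. The sites of 9 enzymes described further on, from the gelatinase, membrane-type, stromelysin, collagenase, procollagen and proteoglycan groups, are given 5′ to 3′ on the coding strand, with the histidine, glutamate and glycine or asparagine codons in capitals.
Mmp2: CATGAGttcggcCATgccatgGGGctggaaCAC
Mmp9: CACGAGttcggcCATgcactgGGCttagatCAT
Mmp14: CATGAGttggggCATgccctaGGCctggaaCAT
Mmp3: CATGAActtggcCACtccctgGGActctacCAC
Mmp13: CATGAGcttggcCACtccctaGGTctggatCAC
Adamts2: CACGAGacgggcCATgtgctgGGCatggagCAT
Adamts5: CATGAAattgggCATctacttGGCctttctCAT
Adamts1: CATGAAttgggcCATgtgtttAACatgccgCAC
Adamts4: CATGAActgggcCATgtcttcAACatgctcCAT

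In the MMP genes shown, the 33 bases lay within a single exon. The Mmp2 site was in exon 8 of 13 (chr8:92839279-92839311, plus strand) and the Mmp9 site in exon 8 of 13 (chr2:164951133-164951165, plus strand). Those of Mmp14 (chr14:54437627-54437659), Mmp3 (chr9:7449775-7449807) and Mmp13 (chr9:7276573-7276605), all on the plus strand, were each in exon 5 of 10. In the ADAMTS genes shown an intron interrupted the site. It ran from exon 3 into exon 4 in Adamts1 (chr16:85799191-85799545, minus strand) and Adamts4 (chr1:171253210-171253915, plus strand). It ran from exon 2 into exon 3 in Adamts5 (chr16:85878015-85887826, minus strand) and from exon 7 into exon 8 in Adamts2 (chr11:50775403-50776134, plus strand).

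The libraries held 21002860, 28704952 and 25338616 gene counts. Levels are given as CPM, which are counts scaled to library size after TMM normalization, and ratios and orders of the members' levels are given as CPM per kilobase of annotated exon. Fibroblast markers were abundant in every library (summed level of 5 genes, 21313 to 24784 CPM), as were 5 leptomeningeal fibroblast genes (1629 to 1717 CPM). Library 1 stood apart in its low markers of macrophages and microglia (summed 10.3 CPM, against 221 and 643 CPM in libraries 2 and 3) and of choroid plexus epithelium (81.8, 3185 and 4880 CPM). Its difference from the others also followed base composition, with a Spearman coefficient of 0.608 between its log2 ratio to libraries 2 and 3 and GC content across 14375 genes, and of 0.339 across the 36 family members that passed the filter on low counts. These are descriptions across genes, which are not independent. In bulk RNA, fewer cells of a type and less RNA per cell cannot be told apart.

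Of the 51 genes, 36 had a mean of at least 1 CPM, 26 of at least 10 CPM and 11 of at least 100 CPM. The same 36 passed the filter, of 14409 genes in all that did. All TIMP and ADAMTSL genes were among the 36, with 12 of 23 MMP and 15 of 19 ADAMTS genes. The other 15 genes held 0 to 23 counts over the 3 libraries together. No count was found for Mmp1a, Mmp1b, Mmp7, Mmp8, Mmp10 and Adamts19, and a count of 0 allows up to 3 counts, or 0.152, 0.101 and 0.116 CPM in libraries 1, 2 and 3 (counting error only).

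**Figure D1:**
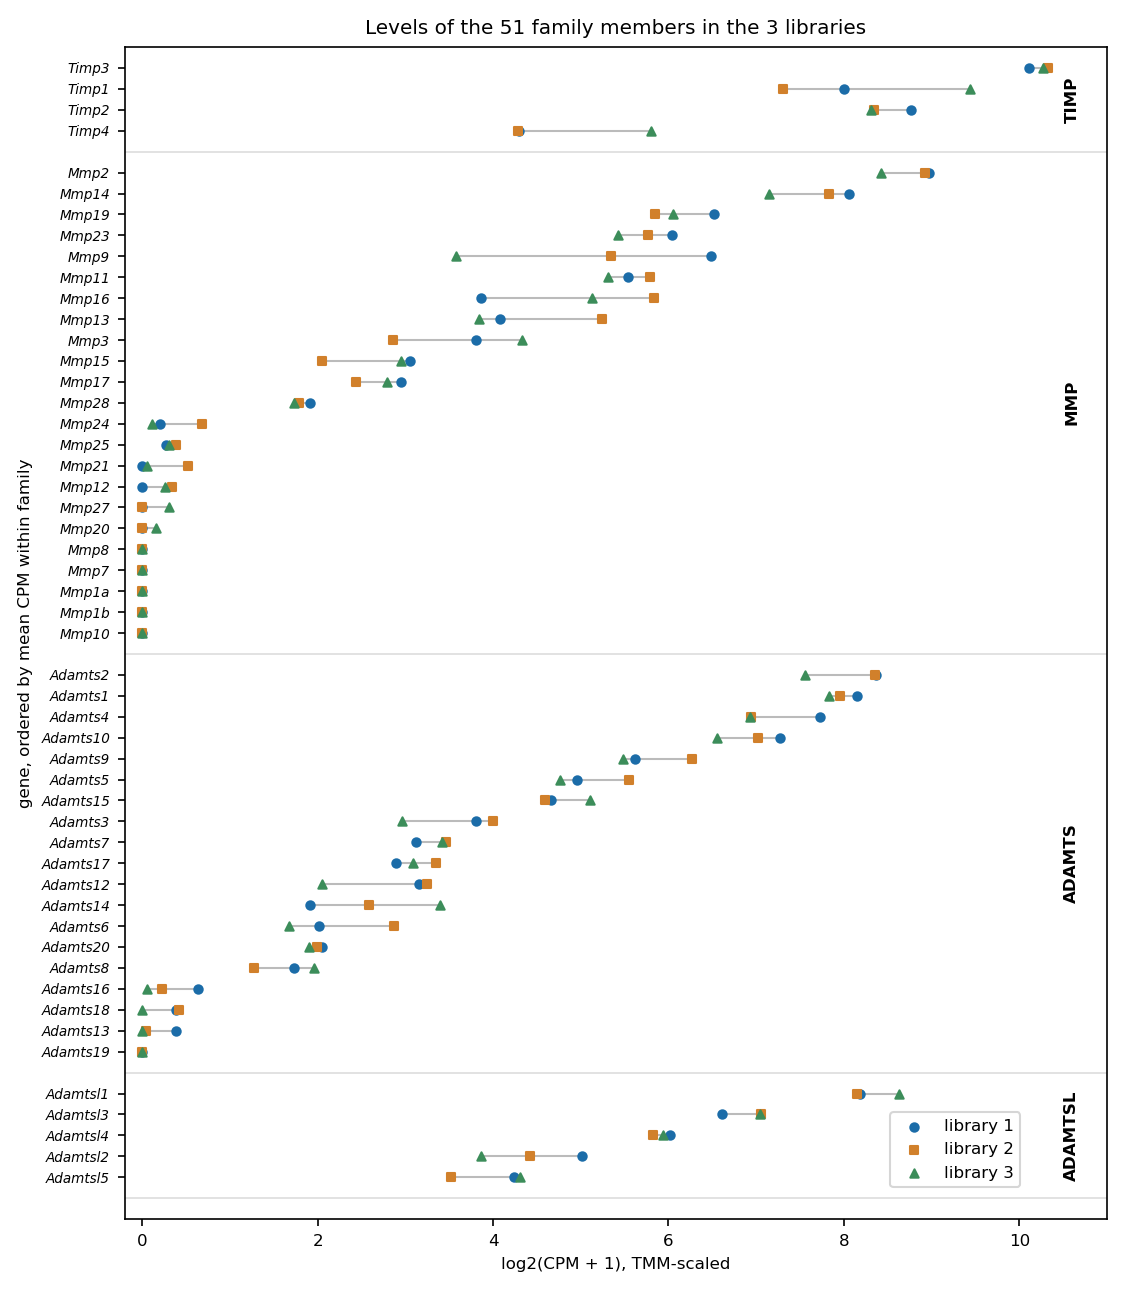
Level of each of the 51 genes in the 3 libraries as log2(CPM + 1), grouped by family and ordered by mean CPM, with a grey line from the lowest to the highest library. All TIMP and ADAMTSL genes lie above a log2 value of 3, whereas 11 MMP and 4 ADAMTS genes have a mean under 1 CPM.

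The inhibitors were the most abundant family per kilobase of exon. Timp3, which binds to the matrix and inhibits ADAMTS4, ADAMTS5 and ADAM17 beside MMPs, was at 1100, 1285 and 1237 CPM in libraries 1, 2 and 3. Its level was nearly the same in each library (mean 1207 ± 95.7 CPM, SD, n = 3). Timp1, a soluble inhibitor of most MMPs, was at 256, 157 and 691 CPM. Library 3 was the high one, 4.40-fold above library 2 on the CPM scale. Timp2, which joins MMP14 in the complex that activates the MMP2 precursor, was at 433, 325 and 315 CPM, highest in library 1. Timp4, whose expression is restricted to few tissues, was at 18.6, 18.5 and 54.6 CPM, and library 3 again stood above the other two.

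Per kilobase of exon, Timp1 led all 51 genes at 415 ± 320 CPM per kilobase (SD, n = 3), with 888 bases of exon. Timp3 followed at 148 ± 11.7, and Timp2 came after Mmp2, at 91.8 ± 16.7. The Timp1 level per kilobase was 2.13, 1.12 and 5.12 times that of Timp3 in libraries 1, 2 and 3. With the longest transcript as the length, the same ratios were 1.24, 0.655 and 2.99, so that Timp3 led in library 2. Timp3 (chr10:86300372-86349506, plus strand) has 21.3% of its exon bases in common with exons of Syn3 on the opposite strand, and reads there could be lost in counting. Timp1 (chrX:20870166-20874735, plus strand) and Timp2 (chr11:118301069-118355740, minus strand) share no exon base with another gene.

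Among the gelatinases, which cut denatured collagen and basement membrane, Mmp2 and Mmp9 differed in level and in spread. Mmp2 was at 501, 484 and 341 CPM and was the leading MMP, at 131 ± 26.1 CPM per kilobase. It made up 50.3% ± 1.58 (SD, n = 3) of the summed MMP level per kilobase. Mmp9, an inducible gelatinase known from leukocytes, was at 88.6, 39.8 and 10.9 CPM, high in library 1 and low in library 3. The Mmp2 level per kilobase was 5.94, 12.8 and 32.8 times that of Mmp9 in libraries 1, 2 and 3.

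The membrane-type MMPs were led by Mmp14, which cuts fibrillar collagen at the cell surface and activates MMP2. Its level was 265, 226 and 141 CPM, lowest in library 3 as for Mmp2. Per kilobase, Mmp2 stood 3.35, 3.78 and 4.27 times and Timp2 stood 2.50, 2.19 and 3.42 times above Mmp14, so the members of the MMP2 activation complex kept the order Mmp2, Timp2, Mmp14 in each library. With the longest transcript as the length the order was the same but the ratios were smaller, at 1.99, 2.25 and 2.54 for Mmp2 and 1.43, 1.25 and 1.95 for Timp2. Mmp16, a transmembrane relative of Mmp14, was at 13.6, 55.9 and 33.9 CPM and was low in library 1. Its longest transcript has a GC content of 42.2%, and after removal of the trends with GC content and length its levels were 19.7, 42.9 and 30.4 CPM. Mmp15 and Mmp17 had means of 5.72 ± 2.26 (range 3.13 to 7.28) and 5.69 ± 1.18 CPM (range 4.40 to 6.72). Mmp24 and Mmp25 held 23 and 19 counts in all.

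The stromelysins and collagenases activate other MMPs or cut native collagen. Mmp11, a stromelysin activated inside the cell by furin, was at 45.6, 54.5 and 38.8 CPM. Mmp3, or stromelysin 1, was at 13.0, 6.25 and 19.2 CPM, and library 2 was the low one. Mmp13, the collagenase of mouse connective tissue, was at 15.9, 36.9 and 13.3 CPM, and library 2 was the high one. Mmp3 and Mmp13 thus had their extremes in library 2 in opposite directions, although neither passed the test between libraries described further on. The remaining collagenases, Mmp1a, Mmp1b and the neutrophil collagenase Mmp8, had no count. Mmp1a and Mmp1b are paralogues, and reads that match both could be lost in counting.

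Mmp3 and Mmp13 belong to a cluster of 10 MMP genes within 427 kb of chromosome 9 (7272514 to 7699585), and they were the only 2 of the cluster above 1 CPM. Together they held 2698 counts, and the other 8 held 22. Those 8 include Mmp12, the macrophage elastase, with 0, 8 and 5 counts in libraries 1, 2 and 3, Mmp7, or matrilysin, with none, and Mmp20, the enamel protease, with 3.

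**Figure D2:**
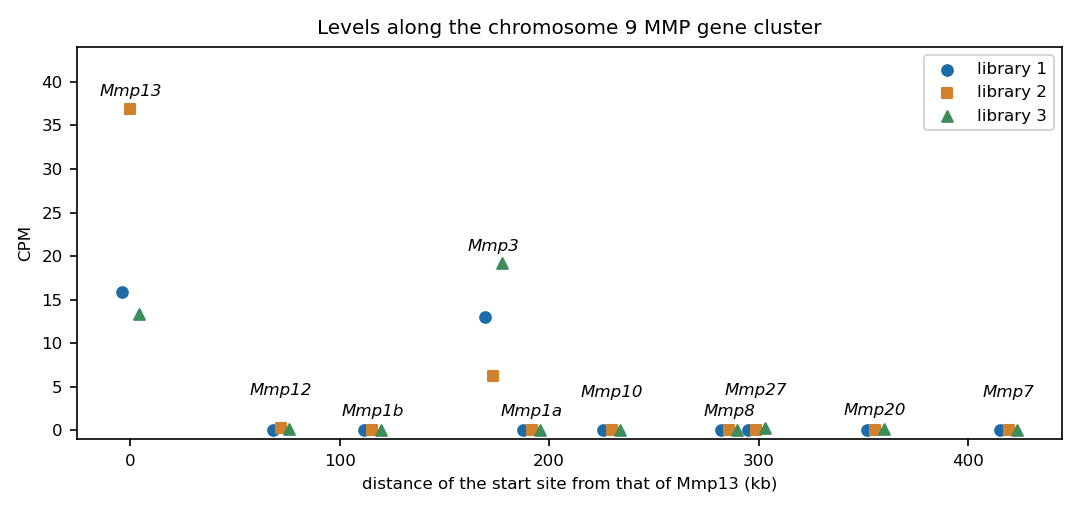
CPM in each library against the distance of each start site from that of Mmp13, in kb, for the 10 MMP genes of the chromosome 9 cluster. Mmp13 reaches 36.9 CPM in library 2 and Mmp3 19.2 CPM in library 3, while the other 8 genes lie at or near 0.

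The promoters of Mmp13 and Mmp3 are shown because they carry a match to the motif of AP-1, the Fos and Jun factor to which MMP genes are known to respond. The AP-1 motif TGAGTCA, with TGACTCA as its reverse complement, was searched in the 250 bases before each start site in RefSeq's table (GRCm38.p6), which matched 36 of the 51 genes with 39 windows. It was present in 7 of the 39 windows, against 4.46% of 32851 windows of the same length. All 7 belonged to the chromosome 9 cluster, namely Mmp3, Mmp13, Mmp7, Mmp10, Mmp12, Mmp1a and Mmp1b. Of these 7 genes, 5 were under 1 CPM. Every gene of the cluster had a window, whereas Mmp2, Mmp9, Mmp16, Mmp17 and Mmp19 were among the genes without a window and were not searched. A match describes the sequence and does not show that a factor binds there. A TATA motif (TATAAA on the coding strand, within 60 bases of the start) was found in 9 member windows and in 2.87% of all windows. The 100 bases before the start sites of Mmp13 (chr9:7272414-7272513, plus strand) and Mmp3 (chr9:7445722-7445821, plus strand) read as follows, with both motifs in capitals.
Mmp13: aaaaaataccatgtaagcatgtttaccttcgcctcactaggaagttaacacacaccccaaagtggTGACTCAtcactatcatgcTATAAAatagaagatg
Mmp3: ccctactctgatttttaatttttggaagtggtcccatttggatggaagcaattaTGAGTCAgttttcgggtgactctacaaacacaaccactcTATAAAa

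Of the other MMPs, Mmp19 was at 90.6, 56.6 and 65.2 CPM and Mmp23, which lacks the usual C-terminal domain, at 64.8, 53.2 and 42.1 CPM. Both were highest in library 1. For Mmp19, 28.3% of exon bases are shared with genes on the opposite strand. Mmp28, or epilysin, was lower, at 2.52 ± 0.239 CPM (range 2.31 to 2.78). Mmp21, Mmp27 and Mmp20 held 14, 6 and 3 counts in all.

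The proteoglycan-cleaving ADAMTS genes were all expressed, with 7 of 7 above 1 CPM. Adamts1, an inducible protease of versican and aggrecan, was at 284, 248 and 226 CPM and led the ADAMTS family at 47.7 ± 5.50 CPM per kilobase. Adamts4, or aggrecanase 1, was at 211, 122 and 121 CPM, highest in library 1. Adamts5, or aggrecanase 2, was at 30.01, 45.9 and 26.3 CPM, highest in library 2. The Adamts1 level per kilobase was 1.222, 1.84 and 1.70 times that of Adamts4 and 19.3, 11.01 and 17.5 times that of Adamts5. Adamts1 and Adamts5 are neighbours on chromosome 16 (85793827 to 85803113 and 85856173 to 85901828, both on the minus strand). Adamts9 was at 47.9, 75.9 and 43.7 CPM and Adamts15 at 24.3, 23.2 and 33.5 CPM. The means of Adamts8 and Adamts20 were 2.21 ± 0.747 (range 1.41 to 2.89) and 2.95 ± 0.200 CPM (range 2.74 to 3.13). Timp3 stood 2.52, 3.37 and 3.56 times above Adamts1 and 3.08, 6.21 and 6.06 times above Adamts4 per kilobase. These ratios were larger with the longest transcript as the length, at 4.01, 5.36 and 5.66 over Adamts1 and 4.85, 9.78 and 9.53 over Adamts4.

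The procollagen N-proteinases remove the amino-terminal propeptide of fibrillar procollagens. Adamts2 was at 330, 326 and 188 CPM, lowest in library 3 like Mmp2 and Mmp14. Adamts3 was at 12.9, 14.99 and 6.79 CPM, and Adamts14 at 2.78, 5.01 and 9.49 CPM. Adamts2 was the highest of these genes in each library, whereas Adamts14 lay below Adamts3 in libraries 1 and 2 and above it in library 3, also per kilobase. Per kilobase Adamts2 was 14.8, 12.6 and 16.1 times above Adamts3 and 66.0, 36.2 and 11.03 times above Adamts14.

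Among the other ADAMTS genes, Adamts10, a microfibril-associated protease, was at 153, 129 and 93.0 CPM. Adamts7 and Adamts12, which cut the matrix protein COMP, had means of 9.14 ± 1.23 (range 7.73 to 10.0) and 6.49 ± 2.93 CPM (range 3.12 to 8.47). Adamts17 and Adamts6 were at 7.70 ± 1.39 (range 6.42 to 9.17) and 3.85 ± 2.18 CPM (range 2.20 to 6.32). Adamts13, the protease of von Willebrand factor, held 7 counts in all, and Adamts16 and Adamts18 held 17 and 16.

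The 5 ADAMTSL genes all exceeded 10 CPM. Adamtsl1, or punctin 1, was at 291, 283 and 395 CPM and made up 41.2% ± 3.86 (SD, n = 3) of the family's summed level per kilobase. Adamtsl3, or punctin 2, was at 96.9, 132 and 131 CPM, lowest in library 1. Adamtsl4, a microfibril-binding protein, was steady at 64.0, 55.5 and 60.4 CPM. Adamtsl2, which binds fibrillin and the latent form of TGF-beta, was at 31.4, 20.4 and 13.6 CPM. Adamtsl5 was at 17.9, 10.5 and 18.8 CPM.

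The summed levels of the families were then compared in each library. The TIMP sum was 538, 421 and 1020 CPM per kilobase, the MMP sum 306, 277 and 201, the ADAMTS sum 167, 143 and 115, and the ADAMTSL sum 58.3, 57.2 and 67.9. The order TIMP, MMP, ADAMTS, ADAMTSL thus held in 3 of 3 libraries. The log2 ratio of TIMP to MMP was 0.81, 0.60 and 2.35 (mean 1.25 ± 0.95, SD, n = 3), and without library 3 its mean was 0.71. MMP exceeded ADAMTS by 0.88 ± 0.074 and TIMP exceeded ADAMTS by 2.13 ± 0.88 on the log2 scale. ADAMTS exceeded ADAMTSL by 1.20 ± 0.39. In a two-sided exact permutation test by sign flips, p was 0.25 for all 4 comparisons and 0.25 after adjustment, and 0.25 is the smallest value that 3 libraries allow. The order of MMP and ADAMTS reversed without division by length, where MMP lay below ADAMTS (log2 ratio -0.041), and with the median over members (-0.35). ADAMTS lay below ADAMTSL with the median over members (-2.79). Each sum rested on few genes, with the 3 leading members holding 72.4% of the MMP, 77.0% of the ADAMTS and 99.3% of the TIMP sum.

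**Figure D3:**
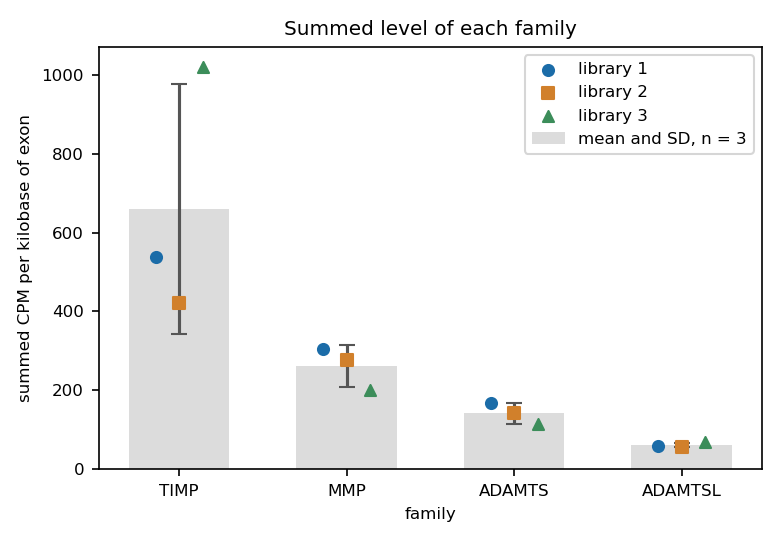
Summed CPM per kilobase of exon of each family, with bars for the mean, error bars for the SD (n = 3) and points for the libraries. The TIMP sum is highest in library 3 (1020), where the MMP (201) and ADAMTS (115) sums are lowest.

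In the order of the 36 expressed genes by mean CPM per kilobase, the ranges over the libraries overlapped in 33 of 35 pairs of neighbours. They were separate between Timp1 and Timp3 and between Timp2 and Adamts1. The gap between Timp1 and Timp3 did not hold with the longest transcript as the length, where Timp1 was 1.24, 0.655 and 2.99 times Timp3. An overlap of ranges ignores that both genes were measured in the same libraries. Among the overlapping pairs, Mmp2 lay above Timp2 and Adamts1 above Mmp14 in each library, whereas Mmp2 lay above Timp3 in library 1 only. With the longest transcript as the length, Mmp2 still lay above Timp2 in each library. By that length Mmp14 lay above Adamts1 in libraries 1 and 2, and Timp3 lay above Mmp2 in each library.

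Spread between libraries was tested for all 14409 genes that passed the filter with edgeR's goodness-of-fit test, in which a called gene varied more than genes of its abundance (Benjamini-Hochberg adjusted p under 0.05). The test called 63 genes, or 0.437% of those tested. Of the 36 members 1 was called, Mmp9 (chr2:164940780-164955850, plus strand), with an 8.12-fold difference between libraries 1 and 3 (edgeR adjusted p = 0.0354). A single call among 36 genes says little about the families. The call was lost with plain library totals (edgeR adjusted p = 0.0648), and over all alternatives with any called gene the adjusted p ranged from 0.00126 to 0.998. It was also lost when library 1 (0.0576), library 2 (0.0532) or library 3 (0.998) was left out of the edgeR fit. After removal of the trends with GC content and length the edgeR adjusted p was 0.00126, and the levels were 77.1, 43.6 and 11.4 CPM.

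Timp1 did not pass with all libraries (edgeR adjusted p = 0.161). It passed after removal of those trends (0.0132), with 210, 186 and 711 CPM, and without library 1 (0.000686), where library 3 was set against library 2 alone. Mmp16 (edgeR adjusted p = 0.441) and Timp4 (0.534) were the other members with an unadjusted p under 0.05. That made 4 of 36 members (11.1%), against 7.04% of all genes tested. The median range between libraries on the log2(CPM + 1) scale was 0.75 over the 36 members and 0.67 over all genes tested.

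**Figure D4:**
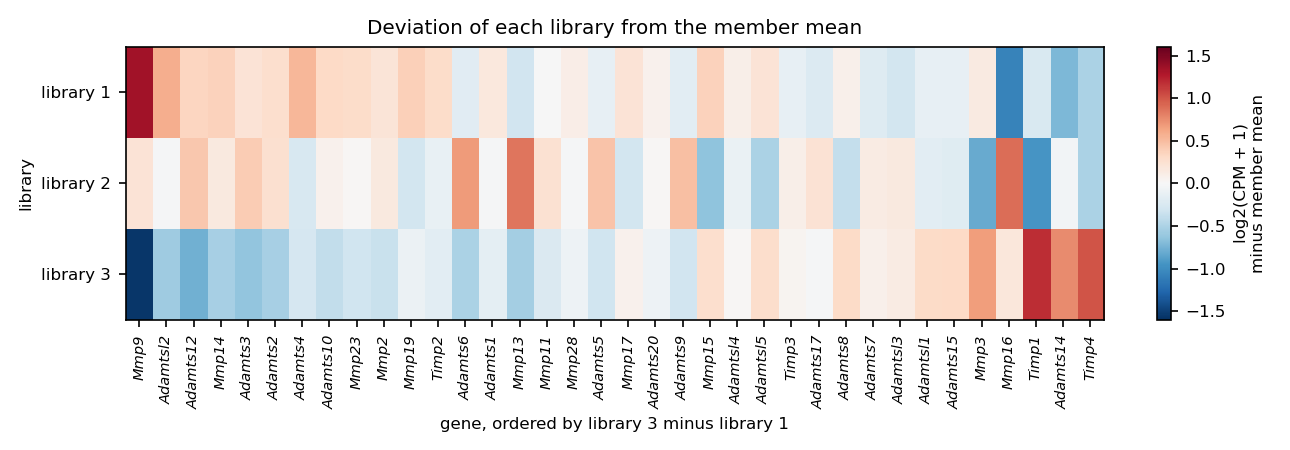
Deviation of each library from the member mean on the log2(CPM + 1) scale for the 36 genes with a mean of at least 1 CPM, ordered by library 3 minus library 1. Mmp9 stands at the library 1 end (88.6 against 10.9 CPM), and Timp1, Adamts14 and Timp4 stand at the library 3 end.

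Levels of cell type markers were set beside these genes, from lists of 5 genes for each type. The macrophage and microglia markers ran opposite to Mmp9, with all 5 genes lowest in library 1 and summed levels of 10.3, 221 and 643 CPM. Neutrophil markers were near 0 in each library, at summed levels of 2.53, 3.09 and 4.55 CPM, and their order between libraries differed. S100a8 and Ngp had no count in library 1, where Mmp9 was highest, S100a9 had 1 count there and Ltf had 6. Camp was highest in library 1 like Mmp9, at 2.17, 0.470 and 0.656 CPM. S100a8 (0, 0.60 and 1.66 CPM) and S100a9 (0.051, 0.97 and 2.01 CPM) were highest in library 3, and Ngp and Ltf in library 2. Of the 5, Camp alone passed the filter, which asks for counts in every library. A marker near 0 in library 1 could thus not pass. The part of these cells in the Mmp9 levels was not tested. Timp1 and Timp4 were highest in library 3 together with all 5 Schwann cell markers (summed 1948, 1555 and 2983 CPM), all 5 astrocyte markers (48.5, 45.5 and 76.9 CPM), all 5 macrophage markers, all 5 choroid plexus markers (81.8, 3185 and 4880 CPM), 4 of 5 lymphocyte markers and 4 of 5 mural cell markers (3177, 2738 and 4863 CPM). Over all lists, 34 of 55 markers were highest in library 3, against 27.6% of the 14409 genes that passed the filter. The part of these cells in the Timp1 and Timp4 levels was not tested. Endothelial markers were summed at 87.3, 60.4 and 70.1 CPM, arachnoid barrier markers at 93.3, 85.9 and 89.1 CPM, and lymphocyte markers at 2.68, 53.7 and 62.1 CPM.

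**Figure D5:**
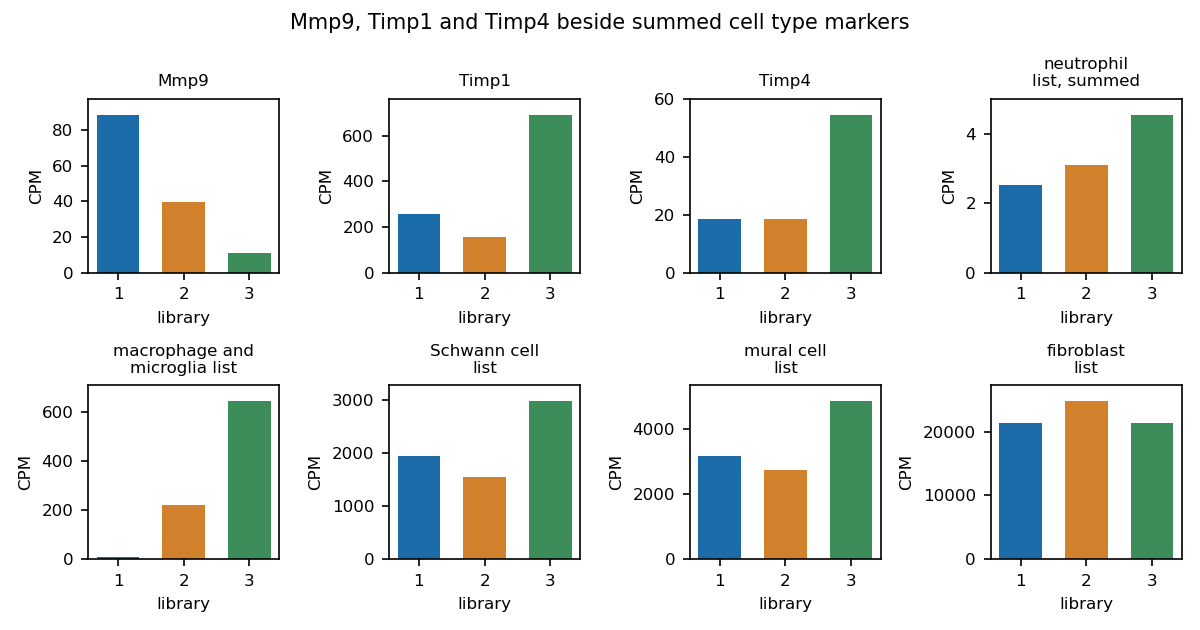
CPM of Mmp9, Timp1 and Timp4 and summed CPM of 5 marker genes of each cell type in libraries 1, 2 and 3, with each panel on its own axis from 0. Mmp9 is at 88.6 CPM in library 1 and 10.9 CPM in library 3, whereas the macrophage and microglia sum is 10.3 CPM in library 1 and 643 CPM in library 3.

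Other genes of the pathway came from a list of 35 activators, inhibitors, substrates and relatives, of which 31 passed the filter. None of the 31 was called by edgeR's test, against 0.437% of all genes tested. At that share, a list of this size could hold no call. In the same test 4 had an unadjusted p under 0.05. Plg, Tll2, Bcan and Ncan did not pass the filter and were not tested, and Bcan was at 2.68, 0.0336 and 9.29 CPM. Lrp1, the endocytic receptor that clears TIMPs and ADAMTS proteases, was at 2695, 1978 and 1913 CPM, and Reck, a membrane-anchored MMP inhibitor, at 63.3, 64.4 and 50.2 CPM. The inhibitor A2m was at 3.23, 24.3 and 21.3 CPM, lowest in library 1. The precursor convertases Furin and Pcsk7 were at 34.4 ± 10.5 and 52.7 ± 6.36 CPM. Plat, the tissue plasminogen activator, was at 412, 280 and 343 CPM, while Plg, its substrate, had no count. The substrates Comp (274 ± 50.6 CPM), Acan (49.9 ± 4.96 CPM) and Vcan (20.7 ± 11.8 CPM) were present, and Fbln1, a cofactor of ADAMTS1, was at 941, 415 and 573 CPM.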

How the data were processed

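Counts per gene were used as deposited by the authors, with no normalization, in 3 libraries of 1 group. Per the submitters' processing notes, build mm10, HTSeq 0.5.3 and DESeq2 1.22.1 were used. The aligner, annotation release and strand setting are not given in the sources used here. Per the labels' protocols, 2 ng of RNA was amplified as cDNA before library preparation. The counter's rows that name no gene (45.6%, 39.1% and 39.6% of the total) were left out. All 51 members matched GENCODE M21 (GRCm38) by gene identifier, and lengths, GC content and coordinates come from it.

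Counts were scaled by TMM and tested in edgeR 4.0.16 (R 4.3.3) by goodness of fit at the trended dispersion of an intercept-only model on 2 degrees of freedom, after filterByExpr at a minimum count of 10. Since there is 1 group, the quasi-likelihood test has no contrast. On counts simulated for this test, it recovered 147 of 200 genes changed 8-fold and 43 of 200 changed 4-fold in 1 library. Family sums were compared by sign flips in scipy 1.17.1. The symbol rule that defines the members, and the gene lists, were chosen with earlier results of these data known. Genes of at least 10 CPM, or called, were given in every library, and the others by mean or count. Alternatives were other size factors (DESeq2 1.42.0 or plain totals), filters, dispersions and lengths, trend removal, and leaving out each library.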

Additional observations from a re-analysis of the deposited data

How the results depend on the processing

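No paired analysis was possible because all libraries belong to 1 group. Depth limited the 15 genes under 1 CPM, for which differences between libraries were not detectable. The number of members with at least 1 CPM stayed at 36 under other size factors and when each library was left out. The summed CPM of each family moved by less than 1 SD under other size factors. A mean of 3 libraries cannot move by 1 SD when 1 is left out, so that limit tests nothing there. Leaving out each library gave sums of 1796 to 2053 CPM for TIMP and 873.5 to 1070 CPM for MMP. The sums were 902.1 to 1078 CPM for ADAMTS and 501 to 559.9 CPM for ADAMTSL. The 4 log2 ratios of family sums kept their direction with the longest transcript as length and without the leading member of each family; leaving out each replicate in turn gave 0.71 to 1.58 for TIMP to MMP, 0.84 to 0.92 for MMP to ADAMTS, 1.63 to 2.42 for TIMP to ADAMTS and 1.04 to 1.42 for ADAMTS to ADAMTSL. The ratio of MMP to ADAMTS reversed without division by length (-0.041) and with the median over members (-0.35), and that of ADAMTS to ADAMTSL with the median over members (-2.79). The count of called members (1) was 0 with plain library totals, 0 with the common dispersion and 0 with tagwise dispersions in edgeR. In these edgeR settings 4, 4 and 1 members had an unadjusted p under 0.05. Tagwise dispersions take in each gene's own spread between these same libraries, so that setting is a weak check on the Mmp9 call. The count was 2 (Mmp9 and Timp1) with the trends removed. Leaving out each replicate in turn gave 0 to 1 called members, and the 1 without library 1 was Timp1. Of all genes (63 called), edgeR called 134 without a filter and 181 with a filter on the mean count, which test more low genes, 98 with the trends removed and 0 with tagwise dispersions, where 96 had an unadjusted p under 0.05; the cause was not tested. Leaving out each replicate in turn gave 12 to 28 genes (27, 28 and 12 without libraries 1, 2 and 3) from fewer samples.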

Other observations

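The ADAM sheddases, membrane proteases that are related to ADAMTS and release surface proteins such as TNF and Notch, were present throughout. All 8 genes of the list had a mean of at least 1 CPM and none was called by edgeR's goodness-of-fit test, in which 0.437% of genes were, and 1 had an unadjusted p under 0.05. Adam9 was at 73.0, 118 and 114 CPM and Adam17, the TNF-releasing enzyme that TIMP3 inhibits, at 64.4, 102 and 87.9 CPM. Adam10 was at 25.7, 93.2 and 66.5 CPM, and library 1 was the low one (edgeR adjusted p = 0.490). Adam15 ran the other way, at 85.9, 49.6 and 52.9 CPM. Adam12 (29.5 ± 1.98 CPM) and Adam19 (35.9 ± 1.99 CPM) were nearly level between libraries, and Adam8 was at 1.03 ± 0.290 CPM.

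Procollagen C-proteinases, which remove the carboxy-terminal propeptide and so complement ADAMTS2, include Bmp1, at 69.6, 62.0 and 44.04 CPM. Like Adamts2, Bmp1 was lowest in library 3. Its enhancer Pcolce was at 2287, 1770 and 1552 CPM. The related proteases Tll1 and Tll2 had means of 4.94 ± 2.81 and 0.108 ± 0.125 CPM, and Pcolce2 was at 0.758, 4.50 and 4.78 CPM.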
